A study of Mus musculus with 16 samples.

Results

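Forelimb tendons, the flexor tendon of the forepaw (Flexor) and the supraspinatus tendon of the shoulder (Supraspinatus), were set against hindlimb tendons, the Achilles tendon of the heel (Achilles) and the patellar tendon of the knee (Patellar). RNA from C57BL/6J mice, which carry no engineered allele or treatment in the labels, was sequenced in 16 libraries, 4 from each tendon and numbered mouse 1 to 4. The labels used here give neither the age nor the sex of the animals, and do not say whether a number marks the same animal in each tendon, so p-values measure the spread between the libraries of a tendon. All 16 libraries entered the comparison, 8 from forelimb and 8 from hindlimb. Reads counted per library were 97242489 to 106573353 in Flexor, 86898889 to 107805065 in Supraspinatus, 84414005 to 97180849 in Achilles and 34559686 to 63235636 in Patellar. The forelimb value of a gene is the mean of its 2 tendons on the log2 scale, so that each tendon counts once. With 2 tendons per limb, a difference between limbs and a difference between these particular tendons cannot be told apart.

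Tendons are cords of collagen made by fibroblasts called tenocytes, and they join muscle to bone. In the embryo the limbs are laid down under different transcription factors, with Tbx5 needed to start the forelimb bud and Pitx1, Isl1 and Tbx4 acting in the hindlimb bud. The Hox genes, in 4 clusters, are read out along the body axis and along each limb, and adult fibroblasts are known to keep part of such positional patterns. Levels below are CPM, read counts scaled to the size of the library with the trimmed mean of M-values (TMM) and not divided by gene length, so they compare libraries for one gene and not one gene with another. The tenocyte membrane protein gene Tnmd was found in every library, at 76.8 to 259 CPM in forelimb libraries (median 116), against 118 to 398 CPM in hindlimb libraries (median 235).

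Of 23754 genes tested, 11387 (47.9%) differed between forelimb and hindlimb at an adjusted p below 0.05 in edgeR's 2-sided quasi-likelihood test with Benjamini-Hochberg adjustment, 5706 higher (24%) and 5681 lower (23.9%) in forelimb. That count includes genes set by 1 tendon. Genes that passed in the mean contrast and in each of the 4 contrasts of a forelimb with a hindlimb tendon, in the same direction, numbered 1308 (5.51%), 2.42% higher and 3.09% lower. Those without any overlap between the 8 forelimb and the 8 hindlimb libraries numbered 1652 (6.95%), 3.94% higher and 3.02% lower. Both conditions held for 977 genes (4.11%), 469 higher (1.97%) and 508 lower (2.14%) in forelimb, and these are called the separating genes here. Their separation is a description, since the values chose them. The median absolute log2 fold change was 1.62 among the higher and 2.11 among the lower separating genes. The 4 contrasts of single tendons passed in unequal shares of genes, 16.2% for Flexor minus Achilles (6.5% higher and 9.72% lower), 50.3% for Flexor minus Patellar (26.2% and 24.2%), 33.6% for Supraspinatus minus Achilles (16.9% and 16.7%) and 53.3% for Supraspinatus minus Patellar (26.4% and 26.8%). Tendons of the same limb also differed from each other, Flexor from Supraspinatus in 6441 genes (27.1%) and Achilles from Patellar in 9131 genes (38.4%). Among the 977 separating genes, 404 (41.4%) passed in neither within-limb contrast, against 47.8% of all genes tested.

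**Figure D1:**
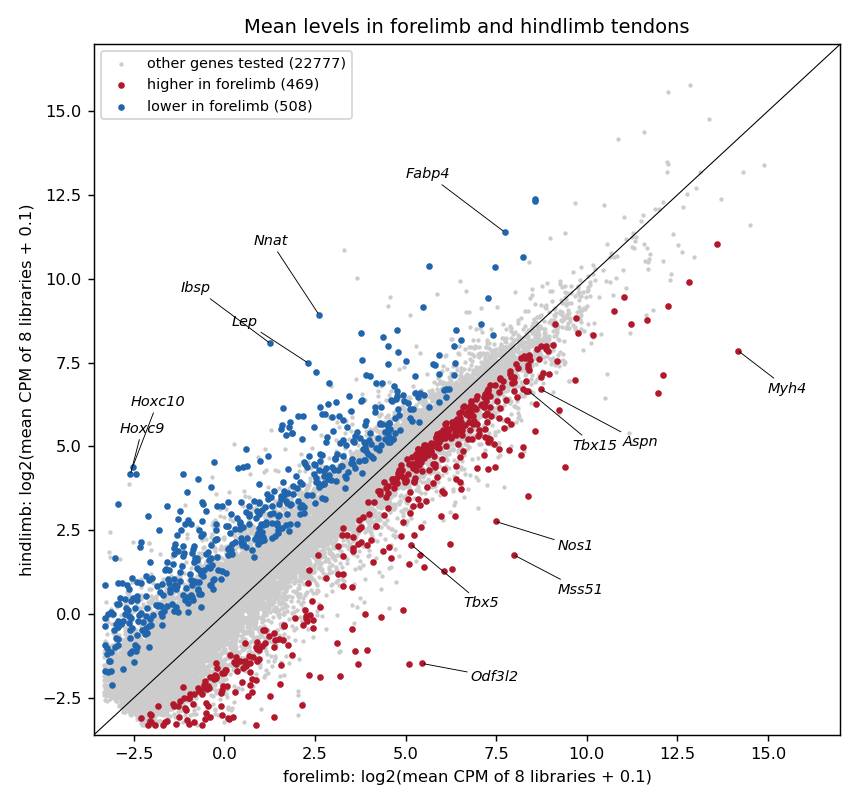
Mean level of each of the 23754 genes tested in the 8 forelimb libraries (x axis) and in the 8 hindlimb libraries (y axis), both as log2(CPM + 0.1), with the line of equal levels. Red points are the 469 separating genes higher in forelimb and blue points the 508 lower in forelimb. Myh4 and Odf3l2 lie far below the line, Hoxc10 and Hoxc9 far above it.

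Tbx5, the T-box transcription factor that starts the forelimb bud (chr5:119832668-119885219, plus strand, GRCm38), was higher in forelimb tendons in every library. It had 45.4, 53.8, 47.3 and 56.7 CPM in Flexor and 18.8, 18.7, 19.8 and 23.9 CPM in Supraspinatus libraries, against 0.46, 0.139, 0.24 and 0.419 CPM in Achilles and 8.73, 6.52, 8.33 and 7.94 CPM in Patellar libraries. No forelimb library overlapped a hindlimb one, and the order of the tendons was Flexor, Supraspinatus, Patellar, Achilles with no overlap between neighbours. The log2 fold change was 4.35 ± 0.18 (SE, edgeR adjusted p = 4.7e-10). Both within-limb contrasts also passed, at 1.32 ± 0.22 for Flexor minus Supraspinatus and -4.63 ± 0.27 for Achilles minus Patellar. Tbx15, a T-box factor of skeletal development, had 229.8 to 409.6 CPM in forelimb libraries (median 348), against 46.7 to 172 CPM in hindlimb libraries (median 96.9). Tbx15 differed by a log2 fold change of 1.84 ± 0.10 (SE, edgeR adjusted p = 4.1e-09), and the groups did not overlap.

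Of the 8 tested genes in a list of forelimb identity genes, 2 were higher, 5 lower and 1 not called, with a median log2 fold change of -1.10, against -0.03 over all genes tested. Of all genes tested 24% were higher and 23.9% lower. Each Flexor contrast had 2 of the 8 listed genes higher and 6 lower, beside 9.72% of all genes lower against Achilles and 24.2% against Patellar. Supraspinatus minus Achilles had 4 higher and 1 lower (median 0.82), beside 16.9% and 16.7% of all genes. Supraspinatus minus Patellar had 2 higher and 3 lower (median -0.2), beside 26.4% and 26.8%. Of 42 other limb patterning genes, 14 were higher and 11 lower, with a median of -0.08, beside 24% of all genes tested higher and 23.9% lower. Sall4, a zinc finger factor needed for forelimb digits in humans, had 1.51, 1.78, 1.43 and 1.05 CPM in Flexor and 1.98, 1.15, 1.87 and 1.38 CPM in Supraspinatus libraries, against 0.21, 0.129, 0.39 and 0.265 CPM in Achilles and 0.0459, 0, 0 and 0 CPM in Patellar libraries. The highest hindlimb library was below the lowest forelimb library, and the log2 fold change was 4.77 ± 0.41 (SE, edgeR adjusted p = 2.76e-07). Without Patellar library 1, the single Patellar library with reads of Sall4, that value was 6.33. Six2, a homeobox factor, had 3.7 to 7.55 CPM in forelimb libraries (median 5.1), against 0.34 to 2.71 CPM in hindlimb libraries (median 0.856), again without overlap and with a log2 fold change of 2.42 ± 0.24 (SE, edgeR adjusted p = 9.14e-07).

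**Figure D2:**
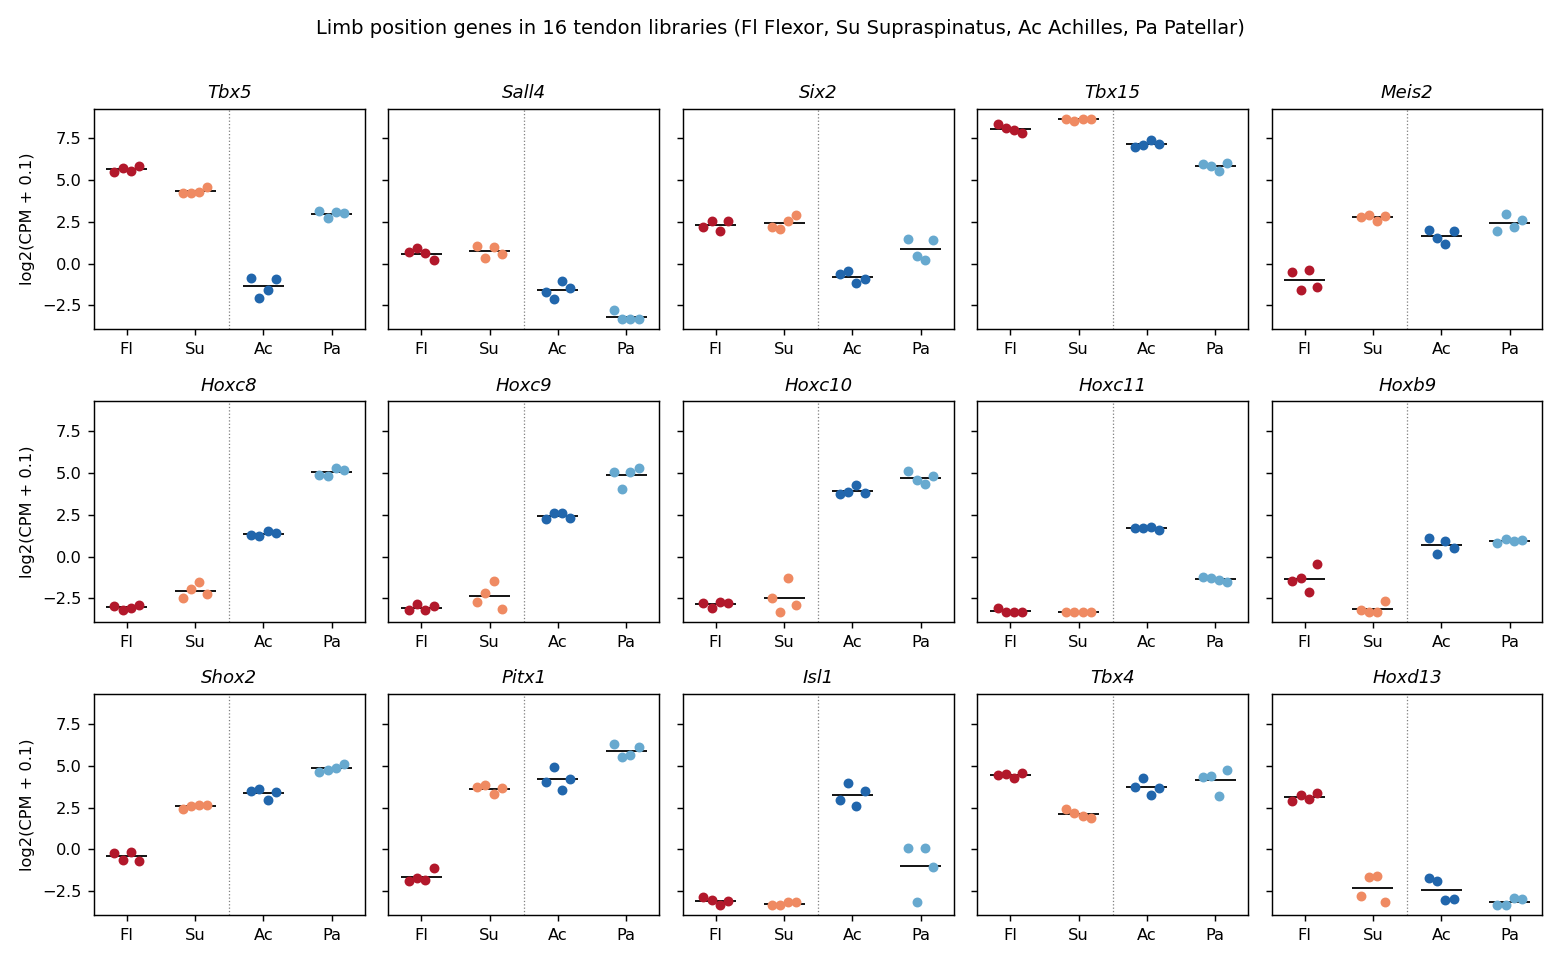
Levels of limb patterning genes in each library as log2(CPM + 0.1), with the tendons from left to right in the order Flexor, Supraspinatus, Achilles, Patellar. Each point is 1 library and each line the mean of the 4 libraries of a tendon. Tbx5 and Tbx15 are higher in every forelimb library, while Isl1 is mostly in Achilles and Pitx1 reaches from Supraspinatus into the hindlimb tendons.

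Several of the largest named differences lay in the Hoxc cluster on chromosome 15. Hoxc10 (chr15:102966796-102971893, plus strand) had 0.0483, 0.02, 0.0535 and 0.0441 CPM in Flexor and 0.0757, 0, 0.305 and 0.0342 CPM in Supraspinatus libraries, against 13.1, 14.3, 18.9 and 13.8 CPM in Achilles and 34.2, 23.8, 19.7 and 28.6 CPM in Patellar libraries. Every hindlimb library was far above the highest forelimb library, and the log2 fold change was -8.21 ± 0.42 (SE, edgeR adjusted p = 3.16e-09), or -8.90 without Supraspinatus library 3. Hoxc9 (chr15:102976439-102985099, plus strand) had 0.00967, 0.04, 0.00892 and 0.0264 CPM in Flexor and 0.0541, 0.118, 0.257 and 0.0114 CPM in Supraspinatus libraries, against 4.59, 5.86, 6 and 4.76 CPM in Achilles and 33, 16.2, 33.4 and 38.8 CPM in Patellar libraries, with a log2 fold change of -8.00 ± 0.40 (SE, edgeR adjusted p = 2.6e-09). Hoxc8 (chr15:102990607-102994111, plus strand) had 0.029, 0.01, 0.0178 and 0.0353 CPM in Flexor and 0.0757, 0.157, 0.244 and 0.114 CPM in Supraspinatus libraries, against 2.34, 2.26, 2.8 and 2.5 CPM in Achilles and 29.5, 27.8, 39.3 and 36.8 CPM in Patellar libraries. The log2 fold change of Hoxc8 was -7.23 ± 0.23 (SE, edgeR adjusted p = 2.31e-11). Within the hindlimb, Hoxc9 and Hoxc8 were higher in every Patellar than in any Achilles library, with Achilles minus Patellar log2 fold changes of -2.52 and -3.75. Hoxc11 was the reverse within the hindlimb: it had 3.19, 3.13, 3.33 and 2.92 CPM in Achilles and 0.322, 0.312, 0.278 and 0.242 CPM in Patellar libraries. In forelimb it was at 0 in 7 of 8 libraries, and Flexor library 1 had 0.0193 CPM, so no fold change is given for it.

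The more anterior members of the cluster did not follow that division. Hoxc6 had 0.058, 0.07, 0.0446 and 0.0353 CPM in Flexor and 5.51, 4.71, 5.39 and 4.35 CPM in Supraspinatus libraries, against 2.4, 1.93, 2.36 and 2.71 CPM in Achilles and 16.3, 15, 19 and 14 CPM in Patellar libraries. Supraspinatus was above Achilles in every library, so the limbs overlapped, although the mean contrast passed with a log2 fold change of -3.58 ± 0.15 (SE, edgeR adjusted p = 4.7e-10). Hoxc5 showed the same order, with at most 0.11 CPM in Flexor and 5.46, 4.95, 5.96 and 9.13 CPM in Supraspinatus, against 2.18, 1.73, 1.66 and 2.06 CPM in Achilles libraries. In the Hoxc list 7 of 8 tested members were lower in forelimb (median log2 fold change -5.41), beside 23.9% of all genes tested. Of the 8 members 4 were lower without overlap between the limbs, beside 3.02% of all genes tested. The annotations of Hoxc6, Hoxc8, Hoxc9 and Hoxc10 overlap that of Hoxc5 on the same strand, so how reads were split among them is uncertain.

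In Hoxb, 6 of 8 were lower in forelimb (median -1.29), beside 23.9% of all genes tested lower and 24% higher. Of the 8 genes 2 were lower without overlap, beside 3.02% of all. Each Flexor contrast had 7 of the 8 lower and 0 higher, beside 9.72% of all genes lower against Achilles and 24.2% against Patellar. Supraspinatus minus Achilles had 3 higher and 2 lower (median 0.54), beside 16.9% and 16.7% of all genes. Supraspinatus minus Patellar had 0 higher and 3 lower (median -0.26), beside 26.4% and 26.8%. Hoxb9 had 0.261, 0.31, 0.134 and 0.635 CPM in Flexor and 0.0108, 0, 0 and 0.0569 CPM in Supraspinatus libraries, against 2.09, 1.03, 1.83 and 1.3 CPM in Achilles and 1.63, 1.98, 1.84 and 1.91 CPM in Patellar libraries. Hoxb9 thus differed by a log2 fold change of -4.41 ± 0.44 (SE, edgeR adjusted p = 1.22e-06), or -5.31 without Supraspinatus library 4. Hoxb8 had at most 0.0541 CPM in forelimb libraries and 0.0595 to 0.574 CPM in hindlimb libraries, a low level throughout. In Hoxa, 2 of 11 tested members were higher and 3 lower (median -0.04), and in Hoxd 4 of 7 were higher and 0 lower (median 0.43), but 0 of 11 and 0 of 7 were free of overlap, beside 6.95% of all tested genes. The posterior Hoxd genes, which pattern the hand and foot, were highest in Flexor. Hoxd13 had 7.29, 9.29, 8.04 and 10.1 CPM in Flexor and at most 0.232 CPM in Supraspinatus, 0.2 CPM in Achilles and 0.0347 CPM in Patellar libraries. Hoxd12 was at 2.14 to 3.53 CPM in Flexor and at 0.0347 CPM or less in the other tendons. Hoxd11 had 15.6, 17.7, 15.7 and 19.4 CPM in Flexor and 0.0324, 0.0393, 0.257 and 0.0228 CPM in Supraspinatus libraries, against 1.65, 2.75, 0.899 and 1.44 CPM in Achilles and 0.0459, 0.013, 0.0694 and 0.188 CPM in Patellar libraries. Hoxa13 had 5.83, 5.94, 6.73 and 7.16 CPM in Flexor, against 0.93, 0.992, 1.05 and 0.985 CPM in Achilles, and was at most 0.314 CPM in Supraspinatus and 0.117 CPM in Patellar libraries. Hoxa11 was higher in Flexor (5.55 to 6.73 CPM) and Achilles (5.13 to 13.2 CPM) than in any Supraspinatus (0.148 to 0.393 CPM) or Patellar library (0.260 to 1.63 CPM). Hoxa11, Hoxa13 and Hoxd11 were thus higher in the tendons of the paw and heel than in those of the shoulder and knee.

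**Figure D3:**
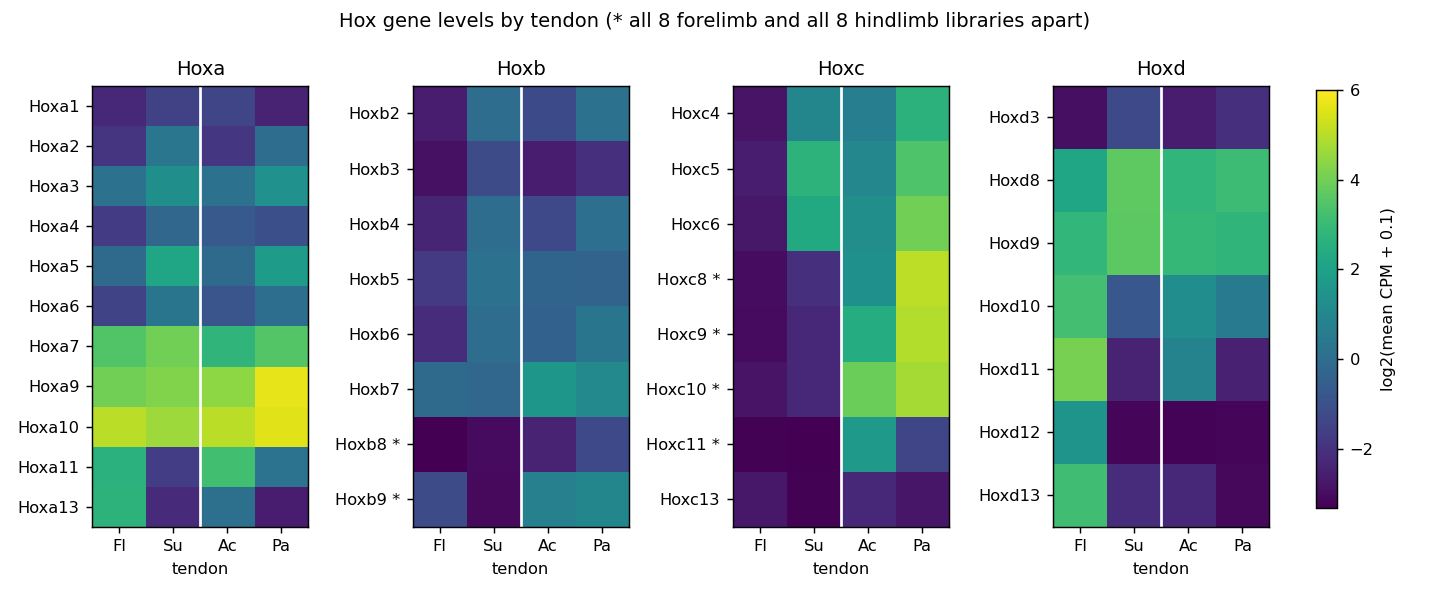
Level of the tested Hox genes in each tendon as log2(mean CPM + 0.1) on a colour scale from dark (low) to bright (high), in the order Flexor, Supraspinatus, Achilles, Patellar from left to right, with the genes grouped by cluster. A star marks the 4 Hoxc and 2 Hoxb genes whose forelimb and hindlimb libraries do not overlap. Hoxd11, Hoxd12, Hoxd13 and Hoxa13 are brightest in Flexor.

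The hindlimb genes did not all separate the limbs either. In that list 6 of 8 tested members were lower in forelimb and 1 was higher, with a median log2 fold change of -5.97. Of all genes tested 23.9% were lower and 24% higher. Pitx1, the homeodomain factor that sets hindlimb identity (chr13:55825051-55836192, minus strand), had 0.164, 0.21, 0.178 and 0.353 CPM in Flexor and 13.1, 14.1, 9.76 and 12.4 CPM in Supraspinatus libraries, against 16.4, 30.9, 11.5 and 18.3 CPM in Achilles and 77.8, 45.2, 50.2 and 70.6 CPM in Patellar libraries. It was low in Flexor alone, and Supraspinatus libraries overlapped with Achilles. The Pitx1 mean contrast was -4.35 ± 0.23 (SE, edgeR adjusted p = 3.38e-09), and Supraspinatus minus Achilles was -0.64, edgeR adjusted p = 0.0786. Isl1, a LIM-homeodomain factor of hindlimb progenitors, had 7.54, 15.6, 6 and 11.2 CPM in Achilles and 0.965, 0.013, 0.937 and 0.377 CPM in Patellar libraries, and at most 0.0387 CPM in forelimb libraries, so that the lowest Patellar library overlapped with forelimb. Tbx4, the T-box factor of hindlimb outgrowth, had 21.8, 22.6, 19 and 23.4 CPM in Flexor and 5.26, 4.39, 3.83 and 3.55 CPM in Supraspinatus libraries, against 13.3, 19.2, 9.24 and 12.6 CPM in Achilles and 19.8, 20.7, 9.2 and 26.5 CPM in Patellar libraries. Flexor lay within the range of the hindlimb tendons, and the Tbx4 mean contrast of -0.74 ± 0.19 (SE, edgeR adjusted p = 0.00376) rested on Supraspinatus: without that tendon the log2 fold change was 0.42. Shox2, a homeobox factor of the proximal limb skeleton, separated the limbs with 0.774, 0.54, 0.803 and 0.511 CPM in Flexor and 5.27, 6.05, 6.28 and 6.1 CPM in Supraspinatus libraries, against 11.2, 12.2, 7.63 and 10.9 CPM in Achilles and 24.8, 27.2, 29.2 and 35 CPM in Patellar libraries. Its log2 fold change was -3.14 ± 0.14 (SE, edgeR adjusted p = 6.65e-10), and within each limb it was lower in Flexor than in Supraspinatus and lower in Achilles than in Patellar.

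Several patterning genes differed between the tendons of 1 limb. Meis2, a TALE homeobox factor of the proximal limb, was at 0.240 to 0.660 CPM in Flexor and at 2.19 CPM or more in every other library. Meis1 was likewise lowest in Flexor, and its mean contrast did not pass (-0.28 ± 0.15 SE, edgeR adjusted p = 0.136). Lmx1b, the LIM-homeodomain factor of the dorsal limb, was higher in Patellar (2.33 to 6.96 CPM) and Supraspinatus (1.06 to 1.80 CPM) than in any Flexor or Achilles library, where it reached at most 0.429 CPM. Emx2, a homeobox factor needed for the shoulder blade, was at 8.61 to 22.2 CPM in Patellar and at 3.68 CPM or less elsewhere. Tbx18 did not pass in the mean contrast (0.33 ± 0.18 SE, edgeR adjusted p = 0.16).

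Among secreted signals, the Wnt list held 3 separating genes higher and 0 lower in forelimb, and the BMP list 2 higher and 1 lower. Of all genes tested, 1.97% were separating and higher, and 2.14% separating and lower. The Wnt pathway acts through ligands and Frizzled receptors, and R-spondins raise its output. Of 25 tested Wnt genes 9 were higher and 6 lower in forelimb (median 0.66), beside 24% of all genes tested higher and 23.9% lower. Rspo1, an R-spondin, had 4.1, 4.02, 3.67 and 3.99 CPM in Flexor and 20.7, 20.1, 21.4 and 38 CPM in Supraspinatus libraries, against 0.38, 0.695, 0.529 and 0.611 CPM in Achilles and 0.528, 1.42, 0.486 and 2.61 CPM in Patellar libraries. Rspo1 had a log2 fold change of 3.56 ± 0.30 (SE, edgeR adjusted p = 2.47e-07), with Supraspinatus above Flexor in every library. The ligands Wnt4 and Wnt2 were also higher. Wnt4 had 1.39 to 5.22 CPM in forelimb libraries (median 2.71), against 0.0347 to 0.781 CPM in hindlimb libraries (median 0.523), and its log2 fold change was 2.37 ± 0.34 (SE, edgeR adjusted p = 3.94e-05). For Wnt2 the libraries were at 4.42 to 19 CPM in forelimb libraries (median 8.43), against 0.679 to 3.69 CPM in hindlimb libraries (median 2.41), and its log2 fold change was 2.16 ± 0.35 (SE, edgeR adjusted p = 0.000102).

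Of 24 tested BMP genes 10 were higher and 7 lower in forelimb (median 0.16), beside 24% of all genes tested higher and 23.9% lower. The ligand Bmp5 had 20.9, 23, 20.3 and 18.3 CPM in Flexor and 15.4, 6.42, 10.8 and 10.2 CPM in Supraspinatus libraries, against 5.1, 5.06, 4.41 and 4.45 CPM in Achilles and 0.023, 2.2, 2.74 and 2.07 CPM in Patellar libraries. The groups did not overlap, and the log2 fold change was 2.37 ± 0.39 (SE, edgeR adjusted p = 0.00014), but Supraspinatus minus Achilles did not pass (1.17, edgeR adjusted p = 0.1). Chrdl2, a secreted antagonist of BMPs, had 0.874 to 2.27 CPM in forelimb libraries (median 1.31), against 0 to 0.539 CPM in hindlimb libraries (median 0.183), with a log2 fold change of 3.58 ± 0.33 (SE, edgeR adjusted p = 5.64e-07). Twsg1, a BMP-binding protein, differed little in size but without overlap, at 256 to 331 CPM in forelimb libraries (median 291), against 154 to 247 CPM in hindlimb libraries (median 196), for a log2 fold change of 0.58 ± 0.09 (SE, edgeR adjusted p = 4.5e-05). Follistatin, encoded by Fst, which binds activins, BMPs and myostatin, went the other way. It had 5.64, 6.58, 6.07 and 6.37 CPM in Flexor and 6.78, 7.48, 6 and 7.9 CPM in Supraspinatus libraries, against 19.4, 19.7, 18.9 and 14.5 CPM in Achilles and 13.2, 24.8, 12.6 and 13.5 CPM in Patellar libraries, and its log2 fold change was -1.37 ± 0.14 (SE, edgeR adjusted p = 1.52e-06).

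Counts for other pathways stand beside 24% of all genes tested higher and 23.9% lower, and the FGF list was called at about those shares. Of 20 tested FGF genes 5 were higher and 4 lower, and Fgfrl1, an FGF receptor without a kinase domain, was lower at 10.4 to 25.1 CPM in forelimb libraries (median 13.8), against 26.2 to 45.8 CPM in hindlimb libraries (median 31.6) (log2 fold change -1.21 ± 0.14 SE, edgeR adjusted p = 5.87e-06). Of 40 axon guidance genes 4 were higher and 19 lower (median -0.46). The guidance ligand Sema3e was higher, at 62.9 to 122 CPM in forelimb libraries (median 79.2), against 21.3 to 53.3 CPM in hindlimb libraries (median 33), with a log2 fold change of 1.39 ± 0.17 (SE, edgeR adjusted p = 8.56e-06). The ephrin receptor Epha3 was lower, at 1.11 to 4.97 CPM in forelimb libraries (median 3.21), against 5.98 to 12.9 CPM in hindlimb libraries (median 10.6), with a log2 fold change of -1.70 ± 0.22 (SE, edgeR adjusted p = 1.22e-05). Of 15 TGF-beta genes 5 were higher and 3 lower: the receptor Tgfbr1 was higher (0.98 ± 0.16 SE, edgeR adjusted p = 0.000103) and the ligand Tgfb3 lower (-0.88 ± 0.13 SE, edgeR adjusted p = 5.28e-05), both without overlap. Of 12 Hedgehog genes 4 were higher and 4 lower (median 0.16). Of 20 IGF and imprinted genes 3 were higher and 10 lower (median -0.36).

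Tendon genes were called in both directions, as were all genes tested, with 24% higher and 23.9% lower. Of 21 tenogenic markers 3 were higher and 6 lower (median -0.08), and of 25 collagens 4 were higher and 9 lower (median -0.52). Of 42 matrix remodelling genes 5 were higher and 17 lower (median -0.50). Without Patellar 5 tenogenic markers were higher and 3 lower, 6 collagens higher and 5 lower, and 6 matrix remodelling genes higher and 13 lower. Scleraxis, encoded by Scx, the transcription factor of tendon progenitors, had 6.09, 4.69, 3.49 and 5.33 CPM in Flexor and 44.7, 35.4, 51.6 and 93.5 CPM in Supraspinatus libraries, against 22.6, 23.3, 11.9 and 17.3 CPM in Achilles and 128, 86.3, 88.6 and 107 CPM in Patellar libraries. It was lowest in Flexor and highest in Patellar, the limbs overlapped, and the mean contrast was -1.40 ± 0.20 (SE, edgeR adjusted p = 3.37e-05). Leaving out Patellar took the Scx value to -0.18 (edgeR adjusted p = 0.604), and leaving out Flexor gave 0.34. Other called tendon genes were the transcription factor Mkx (-0.82 ± 0.19 SE, edgeR adjusted p = 0.00212), the tendon membrane protein Tnmd (-0.92 ± 0.22 SE, edgeR adjusted p = 0.00296) and Col1a1 (-0.99 ± 0.31 SE, edgeR adjusted p = 0.0142), all with overlapping limbs, and without Patellar none of these passed, at -0.23 for Mkx (edgeR adjusted p = 0.454), -0.51 for Tnmd (0.153) and -0.24 for Col1a1 (0.651). The matrix protein Comp did not pass (0.02 ± 0.23 SE, edgeR adjusted p = 0.952). Lubricin, encoded by Prg4, which coats gliding surfaces, had 756 to 2383 CPM in forelimb libraries (median 1446), against 1285 to 3946 CPM in hindlimb libraries (median 2030), and its log2 fold change was -0.55 ± 0.16 (SE, edgeR adjusted p = 0.0116). Supraspinatus libraries were the lowest for Prg4, and without them the value was 0.08.

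Of the 21 tenogenic markers 1, asporin, was among the separating genes. Aspn, which encodes this small leucine-rich proteoglycan, had 298, 398, 530.2 and 176 CPM in Flexor and 399, 695, 442 and 459 CPM in Supraspinatus libraries, against 171, 111, 85.9 and 127 CPM in Achilles and 41, 129, 94.1 and 73.9 CPM in Patellar libraries. The Aspn log2 fold change was 2.03 ± 0.25 (SE, edgeR adjusted p = 9.45e-06), although its annotation overlaps Cenpp. The proteases Adamts15 and Adamts9, which cleave proteoglycans, were lower in forelimb. Adamts15 had 1.62 to 8.72 CPM in forelimb libraries (median 6.23), against 15.6 to 36.5 CPM in hindlimb libraries (median 17.9), with a log2 fold change of -2.07 ± 0.23 (SE, edgeR adjusted p = 2.68e-06). In Adamts9 the difference was -1.22 ± 0.15 (SE, edgeR adjusted p = 1.05e-05), with 3.59 to 8.31 CPM in forelimb libraries (median 6.32), against 11.5 to 21.3 CPM in hindlimb libraries (median 13). The protease inhibitor Timp4 was also lower (-1.68 ± 0.22 SE, edgeR adjusted p = 1.67e-05), as was the gelatinase Mmp9 (-4.93 ± 0.66 SE, edgeR adjusted p = 1.93e-05). Mmp9 ranged from 0.470 to 18.5 CPM among the hindlimb libraries.

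Some of the separating genes are markers of muscle and fat. In bulk tissue, fewer cells of a type and less RNA per cell cannot be told apart. Genes of a list of skeletal muscle markers took 10.2 to 14.3% of counts in Flexor and 18.7 to 20.2% in Supraspinatus, against 7.73 to 14.5% in Achilles and 0.106 to 1.34% in Patellar. Patellar had the least, and Flexor and Achilles overlapped. Of 58 tested markers 50 were higher and 7 lower in forelimb (median 2.55), beside 24% and 23.9% of all genes tested. In Flexor minus Achilles 11 were higher and 8 lower (median 0.2), beside 6.5% and 9.72% of all genes tested. Leaving out Patellar gave 28 of the markers higher and 9 lower. Of the 469 separating genes higher in forelimb, 10 were in the muscle, fast fibre or satellite cell and myogenic lists, which share members. By list these were 8 of 58 muscle markers, 5 of 15 fast fibre genes and 2 of 12 satellite cell and myogenic genes. Of all genes tested 1.97% were separating and higher.

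Fast fibre genes took a larger share in every forelimb library, and slow fibre genes were highest in Achilles. The fast fibre list took 4.65 to 6.74% of counts in Flexor and 9.83 to 10.6% in Supraspinatus, against 1.64 to 3.28% in Achilles and 0.0292 to 0.333% in Patellar. The slow fibre list took 0.127 to 0.204% in Flexor and 0.0464 to 0.0769% in Supraspinatus, against 1.11 to 2% in Achilles and 0.0161 to 0.183% in Patellar. All 15 tested fast fibre genes were higher in forelimb (median 3.79), 12 of 15 in Supraspinatus minus Achilles and 5 of 15 in Flexor minus Achilles. Of 12 slow fibre genes 1 was higher and 7 lower (median -2.56). All 12 tested genes of a mixed list of satellite cell and myogenic factors were higher (median 2.94), 3 of 12 in Flexor minus Achilles. Satellite cells are the stem cells of muscle. Of all genes tested 24% were higher and 23.9% lower. The share higher was 16.9% in Supraspinatus minus Achilles and 6.5% in Flexor minus Achilles.

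**Figure D4:**
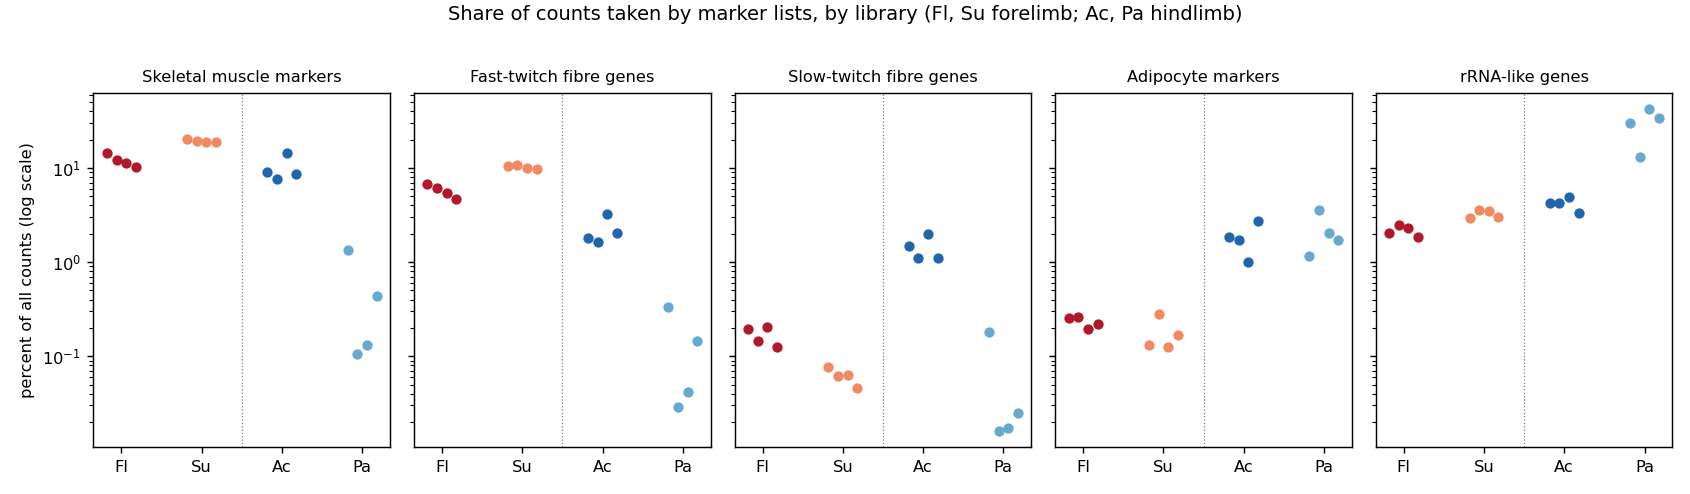
Share of total counts, in percent on a log10 axis, taken by the marker lists in each of the 16 libraries, with tendons in the order Flexor, Supraspinatus, Achilles, Patellar. Each point is 1 library. The adipocyte shares of forelimb (0.125 to 0.285%) and hindlimb (0.996 to 3.57%) do not overlap, and the muscle shares of Patellar lie below those of the other 3 tendons.

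Myh4, which encodes the fast myosin heavy chain of type IIB fibres (chr11:67238029-67260446, plus strand), had 7028, 12170, 11160 and 5635 CPM in Flexor and 29400, 28720, 29100 and 24580 CPM in Supraspinatus libraries, against 116, 120.3, 331 and 840.5 CPM in Achilles and 233, 29.7, 73.8 and 106 CPM in Patellar libraries. Every forelimb library was above every hindlimb one, and the log2 fold change was 6.33 ± 0.54 (SE, edgeR adjusted p = 2.59e-07). The calcium buffer parvalbumin, Pvalb, had 919 to 7304 CPM in forelimb libraries (median 3895), against 8.14 to 215 CPM in hindlimb libraries (median 86.1), for a log2 fold change of 5.18 ± 0.52 (SE, edgeR adjusted p = 1.15e-06), or 5.86 without Patellar library 1. The fast fibre actinin Actn3 had 740.1 to 7851 CPM in forelimb libraries (median 4444), against 6.97 to 361 CPM in hindlimb libraries (median 93.4), for a log2 fold change of 5.19 ± 0.44 (SE, edgeR adjusted p = 2.51e-07). Myostatin, Mstn, a secreted brake on muscle growth, had 70.5, 72.4, 55.2 and 31.1 CPM in Flexor and 87.2, 97.8, 99.1 and 112 CPM in Supraspinatus libraries, against 4.2, 2.2, 3.4 and 6.98 CPM in Achilles and 0.85, 0.482, 0.451 and 1.1 CPM in Patellar libraries. The Mstn log2 fold change was 5.44 ± 0.28 (SE, edgeR adjusted p = 2.61e-09). The neuronal nitric oxide synthase Nos1, which sits at the membrane of muscle fibres, had 129 to 262 CPM in forelimb libraries (median 166), against 0.221 to 21.4 CPM in hindlimb libraries (median 5.01), for a log2 fold change of 5.83 ± 0.33 (SE, edgeR adjusted p = 6.1e-09). Myhas, the long noncoding RNA of the fast myosin genes, had 17.8 to 49.8 CPM in forelimb libraries (median 30.5), against 0.104 to 2.84 CPM in hindlimb libraries (median 0.762) (log2 fold change 5.59 ± 0.27 SE, edgeR adjusted p = 2.27e-09), but it lies antisense to Myh1, and without a known strand setting their reads cannot be told apart. Myf5, the myogenic factor of satellite cells, had 1.96, 1.62, 2.02 and 1.97 CPM in Flexor and 1.72, 1.7, 1.59 and 1.45 CPM in Supraspinatus libraries, against 0.85, 0.238, 1.21 and 0.72 CPM in Achilles and 0, 0.0521, 0.0347 and 0.0269 CPM in Patellar libraries, for a log2 fold change of 3.48 ± 0.35 (SE, edgeR adjusted p = 1.21e-06).

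Promoters of Myh4 and Myf5 are shown because they stand for the muscle genes higher in forelimb, as RefSeq gives them for GRCm38.p6 from 250 bases before to 50 after the start of the gene, read along the strand of the gene. Capitals mark matches on either strand to a MEF2 motif (CTA, then 4 bases of any kind, then TAG), an E-box (CAGCTG) and a C/EBP motif (TTGCNNAA).
Myh4, chr11:67237562-67237861, plus strand: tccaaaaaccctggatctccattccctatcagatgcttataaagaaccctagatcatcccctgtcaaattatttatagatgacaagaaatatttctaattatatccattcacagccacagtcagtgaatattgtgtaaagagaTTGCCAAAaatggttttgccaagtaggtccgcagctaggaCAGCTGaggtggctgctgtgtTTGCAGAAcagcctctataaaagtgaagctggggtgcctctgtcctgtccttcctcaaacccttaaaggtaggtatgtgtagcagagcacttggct
Myf5, chr10:107486085-107486384, minus strand: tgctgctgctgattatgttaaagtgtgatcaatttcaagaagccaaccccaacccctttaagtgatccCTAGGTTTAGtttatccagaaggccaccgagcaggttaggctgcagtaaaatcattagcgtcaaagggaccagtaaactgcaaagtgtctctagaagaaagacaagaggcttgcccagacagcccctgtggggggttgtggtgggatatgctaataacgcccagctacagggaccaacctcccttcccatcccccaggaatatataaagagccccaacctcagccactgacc
The Myh4 window held 1 E-box and 2 C/EBP matches, and the Myf5 window held 1 MEF2 match. Counted as genes with a matching promoter, the MEF2 motif was found for 19 of 286 separating genes higher in forelimb (6.64%) and 6 of 301 lower (1.99%). Its share was 3.96% of genes tested and 4.23% of all genes. The E-box was found for 19.6% of genes higher, 21.9% of genes lower, 19.1% of genes tested and 18.3% of all genes. A match is a string of letters and not a shown binding site.

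Genes of fat cells were lower in forelimb in all 19 of 19 tested adipocyte markers (median -3.43), beside 23.9% of all genes tested. Of these markers 13 are among the 508 separating genes lower in forelimb, which are 2.14% of all genes tested. The markers took 0.125 to 0.285% of counts in forelimb libraries and 0.996 to 3.57% in hindlimb libraries. Counts of lower markers against each hindlimb tendon were 16 of 19 in Flexor minus Achilles, 18 in Flexor minus Patellar and all 19 in both contrasts of Supraspinatus. Of all genes tested 9.72% were lower in Flexor minus Achilles and 24.2% in Flexor minus Patellar. The shares were 16.7% in Supraspinatus minus Achilles and 26.8% in Supraspinatus minus Patellar. Leptin, Lep, the fat cell hormone that reports energy stores (chr6:29060220-29073877, plus strand), had 10.9, 9.22, 4.21 and 4.93 CPM in Flexor and 2.4, 3.63, 1.59 and 1.99 CPM in Supraspinatus libraries, against 144, 128, 67.4 and 284 CPM in Achilles and 82.7, 253, 264 and 211 CPM in Patellar libraries. Lep differed by a log2 fold change of -5.41 ± 0.37 (SE, edgeR adjusted p = 3.54e-08). Perilipin 1, Plin1, which coats lipid droplets (chr7:79720218-79732903, minus strand), had 5.96, 6.02, 2.29 and 4.78 CPM in Flexor and 2.1, 14, 2.66 and 7.82 CPM in Supraspinatus libraries, against 92.6, 90.8, 50.7 and 136 CPM in Achilles and 120.5, 283, 245 and 162 CPM in Patellar libraries. Plin1 differed by a log2 fold change of -4.61 ± 0.41 (SE, edgeR adjusted p = 3.6e-07). The fatty acid carrier Fabp4 had 144 to 504 CPM in forelimb libraries (median 160.2), against 1478 to 4254 CPM in hindlimb libraries (median 2566), for a log2 fold change of -3.64 ± 0.29 (SE, edgeR adjusted p = 1.19e-07). Lpl, the lipase that frees fatty acids from lipoproteins, had 176 to 524 CPM in forelimb libraries (median 288), against 740.4 to 2480 CPM in hindlimb libraries (median 1669), for a log2 fold change of -2.40 ± 0.18 (SE, edgeR adjusted p = 8.56e-08). Thrsp, a factor of fatty acid synthesis, had 11.5 to 39.6 CPM in forelimb libraries (median 21.3), against 72.7 to 312 CPM in hindlimb libraries (median 174), for a log2 fold change of -2.86 ± 0.21 (SE, edgeR adjusted p = 6.43e-08).

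Ffar2, a receptor for short-chain fatty acids, had 0.0541 to 0.68 CPM in forelimb libraries (median 0.336), against 8.75 to 37.8 CPM in hindlimb libraries (median 14.8), for a log2 fold change of -5.64 ± 0.42 (SE, edgeR adjusted p = 7.75e-08). Hcar1, the lactate receptor, had 0.227 to 1.25 CPM in forelimb libraries (median 0.741), against 5.21 to 47.8 CPM in hindlimb libraries (median 19.4), for a log2 fold change of -4.88 ± 0.44 (SE, edgeR adjusted p = 4.05e-07). Lgals12, a galectin of lipid droplets, had 0.671 to 4.78 CPM in forelimb libraries (median 2.98), against 26.5 to 111 CPM in hindlimb libraries (median 68.4), for a log2 fold change of -4.58 ± 0.42 (SE, edgeR adjusted p = 4.9e-07). Arxes1 (-4.01 ± 0.39 SE, edgeR adjusted p = 8.61e-07) and Fcor (-4.04 ± 0.40 SE, edgeR adjusted p = 1.05e-06), both known from adipose tissue, were lower as well. Without Supraspinatus library 2 the Fcor value was -4.63, and Arxes1 has a close copy, Arxes2, with which reads may be shared.

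The promoters of Lep and Plin1 stand for this group and are shown with the same marks.
Lep, chr6:29059971-29060270, plus strand: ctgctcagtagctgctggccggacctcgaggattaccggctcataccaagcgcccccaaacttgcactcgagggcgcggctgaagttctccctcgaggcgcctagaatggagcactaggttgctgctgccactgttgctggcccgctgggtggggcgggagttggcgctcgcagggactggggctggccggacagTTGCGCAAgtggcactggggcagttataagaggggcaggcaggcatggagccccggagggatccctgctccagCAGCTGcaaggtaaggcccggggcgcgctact
Plin1, chr7:79732727-79733026, minus strand: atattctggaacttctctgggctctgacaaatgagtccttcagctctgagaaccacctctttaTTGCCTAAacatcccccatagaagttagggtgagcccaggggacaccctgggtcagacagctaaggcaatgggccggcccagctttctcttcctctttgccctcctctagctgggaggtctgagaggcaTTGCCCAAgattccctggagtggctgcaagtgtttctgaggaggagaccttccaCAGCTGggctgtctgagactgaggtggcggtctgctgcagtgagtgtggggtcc
The Lep window held 1 E-box and 1 C/EBP match, and the Plin1 window held 1 E-box and 2 C/EBP matches. Shares are of genes with a matching promoter. The C/EBP motif was found for 16.6% of separating genes lower in forelimb and 10.8% of those higher, beside 10.7% of genes tested and 12.2% of all genes. A direct repeat of AGGNCA with 1 base between, read by PPARG with RXR, was found for 2 of 301 genes lower (0.664%) and 1 of 286 higher (0.35%). Its share was 0.335% of genes tested and 0.451% of all genes.

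The 30 named genes with the largest differences held other genes besides. Odf3l2, named for its likeness to outer dense fibre proteins of sperm tails, had 62.6, 53, 16.2 and 14.3 CPM in Flexor and 49.1, 56, 76.2 and 23.5 CPM in Supraspinatus libraries, against 0.42, 0.337, 0.579 and 0.283 CPM in Achilles and 0.184, 0.0651, 0.104 and 0.108 CPM in Patellar libraries. Both limbs varied among their libraries, but the lowest forelimb library was far above the highest hindlimb one, and the log2 fold change was 7.67 ± 0.44 (SE, edgeR adjusted p = 6.64e-09). Mss51, a mitochondrial protein of skeletal muscle, had 340, 311, 95.3 and 149 CPM in Flexor and 221, 163, 444 and 300.2 CPM in Supraspinatus libraries, against 2.3, 2.19, 4.84 and 3.77 CPM in Achilles and 5.15, 2.1, 4.55 and 1.48 CPM in Patellar libraries, with a log2 fold change of 6.26 ± 0.39 (SE, edgeR adjusted p = 1.95e-08). Colec10, a collectin of innate immunity, had 3.03 to 31.6 CPM in forelimb libraries (median 10.7), against 0.0599 to 1.26 CPM in hindlimb libraries (median 0.183), for a log2 fold change of 5.01 ± 0.54 (SE, edgeR adjusted p = 2.3e-06). Sbk2, a kinase gene whose annotation overlaps Ssc5d, had 109 to 547 CPM in forelimb libraries (median 321), against 2.71 to 27.6 CPM in hindlimb libraries (median 9.45), for a log2 fold change of 4.93 ± 0.23 (SE, edgeR adjusted p = 1.48e-09). Mybph, a myosin-binding protein, was higher in Flexor than in Supraspinatus and had a log2 fold change of 4.43 ± 0.38 (SE, edgeR adjusted p = 3.01e-07), and its annotation overlaps Adora1. Ache, the acetylcholinesterase of nerve to muscle junctions, had 13.1 to 76.4 CPM in forelimb libraries (median 52.7), against 0.417 to 5.33 CPM in hindlimb libraries (median 2.24), for a log2 fold change of 4.51 ± 0.31 (SE, edgeR adjusted p = 4.54e-08). The other 4 of the 15 highest, Igfn1, Cacna2d4, Gdap1 and Ildr1, had log2 fold changes of 4.54 to 6.54.

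Neuronatin, Nnat, an imprinted gene expressed from the paternal copy, had 10.9, 15.7, 4.83 and 5.7 CPM in Flexor and 1.29, 5.81, 2.22 and 1.59 CPM in Supraspinatus libraries, against 453, 442, 249 and 681 CPM in Achilles and 253, 670.2, 710.4 and 429 CPM in Patellar libraries. Its log2 fold change was -6.59 ± 0.43 (SE, edgeR adjusted p = 2.58e-08), although Nnat lies within Blcap. Krt75, a keratin of the hair follicle, had at most 0.107 CPM in forelimb libraries and 0.31 to 25.7 CPM in hindlimb libraries, where Patellar was above Achilles. Prtn3, a serine protease of neutrophil granules, had 0.0122 to 0.419 CPM in forelimb libraries (median 0.0924), against 2.13 to 18.7 CPM in hindlimb libraries (median 4.32), for a log2 fold change of -5.53 ± 0.53 (SE, edgeR adjusted p = 7.55e-07). Klhdc7a, a kelch domain protein, had 0.184 to 0.991 CPM in forelimb libraries (median 0.499), against 9.58 to 25.2 CPM in hindlimb libraries (median 15.2), for a log2 fold change of -5.17 ± 0.27 (SE, edgeR adjusted p = 3.47e-09). Ctcflos lies antisense to Ctcfl, so its level (-5.11 ± 0.38 SE, edgeR adjusted p = 7.75e-08) is uncertain. Vnn3, a pantetheinase gene, had 0.0974 to 0.339 CPM in forelimb libraries (median 0.172), against 1.2 to 8.54 CPM in hindlimb libraries (median 6.05), for a log2 fold change of -4.91 ± 0.32 (SE, edgeR adjusted p = 2.31e-08).

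**Figure D5:**
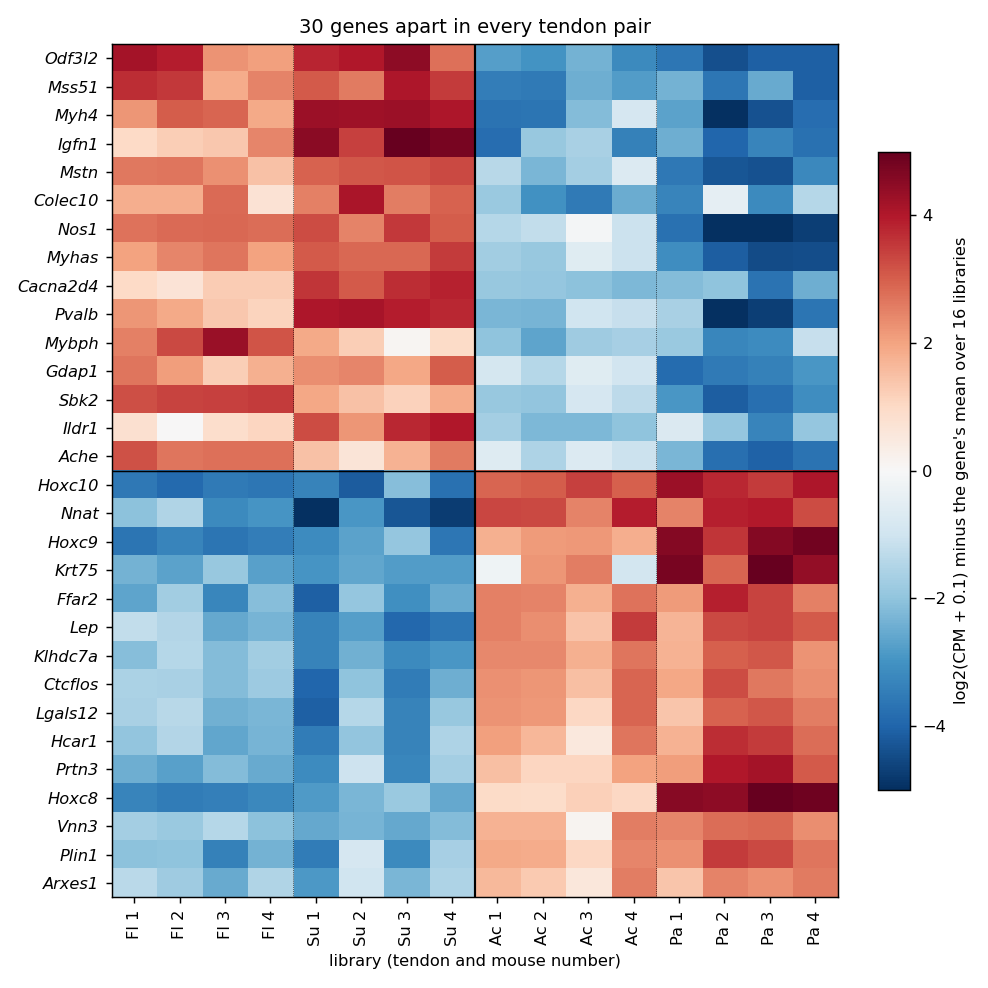
Level in each library relative to the mean over all 16, as log2(CPM + 0.1), of the 15 separating genes with the largest excess in forelimb (upper rows) and the 15 with the largest deficit (lower rows), with the tendons in the order Flexor, Supraspinatus, Achilles, Patellar from left to right. Rows are ordered by the smallest of the 4 differences between a forelimb and a hindlimb tendon.

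A group of genes separated the limbs while the tendons within each limb did not differ in the test. Those named here were picked from the 404 after their values were seen. Cd55, an inhibitor of complement, had 181, 204, 228 and 162 CPM in Flexor and 152, 254, 189.6 and 151 CPM in Supraspinatus libraries, against 68.1, 59.2, 44.7 and 53.7 CPM in Achilles and 58.5, 65.9, 63.2 and 49.6 CPM in Patellar libraries. Its log2 fold change was 1.72 ± 0.13 (SE, edgeR adjusted p = 7.91e-08). Hmcn1, an extracellular matrix protein of the hemicentin family, had 26.1, 31.1, 40 and 23.1 CPM in Flexor and 24.2, 38.8, 24.2 and 26.2 CPM in Supraspinatus libraries, against 6.53, 4.32, 2.44 and 6.2 CPM in Achilles and 5.21, 5.96, 2.57 and 6.05 CPM in Patellar libraries, with a log2 fold change of 2.57 ± 0.23 (SE, edgeR adjusted p = 3.47e-07). Tmem100, a membrane protein induced by BMP signals in endothelium, had 136, 175, 202 and 127 CPM in Flexor and 113, 149.5, 143 and 104 CPM in Supraspinatus libraries, against 34, 30.7, 17.4 and 21.9 CPM in Achilles and 31.6, 31, 25.7 and 19.2 CPM in Patellar libraries, for a log2 fold change of 2.43 ± 0.16 (SE, edgeR adjusted p = 3.32e-08). In Cd55, Hmcn1 and Tmem100 the lowest forelimb library was over 2-fold above the highest hindlimb library. Dynlt1b, a dynein light chain with close copies, had 5.86 to 7.87 CPM in forelimb libraries (median 6.91), against 1.55 to 2.4 CPM in hindlimb libraries (median 2.02), for a log2 fold change of 1.78 ± 0.13 (SE, edgeR adjusted p = 4.92e-08). The channel-like protein Tmem37 had 25 to 120.4 CPM in forelimb libraries (median 62.8), against 5.42 to 19.5 CPM in hindlimb libraries (median 12), for a log2 fold change of 2.31 ± 0.26 (SE, edgeR adjusted p = 3.8e-06), and Katnal2, related to the microtubule-severing katanins, had 3.35 to 8.08 CPM in forelimb libraries (median 5.06), against 0.162 to 1.12 CPM in hindlimb libraries (median 0.625), for a log2 fold change of 3.02 ± 0.32 (SE, edgeR adjusted p = 2.24e-06). Bbox1, the last enzyme of carnitine synthesis, was higher at 2.78 ± 0.46 (SE, edgeR adjusted p = 0.000123). Ankef1 was lower at -4.33 ± 0.44 (SE, edgeR adjusted p = 1.5e-06).

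Markers of other cell types moved with the limbs to different degrees, and their counts stand beside 24% of all genes tested higher and 23.9% lower. Schwann cell and nerve markers took 0.214 to 0.599% of counts in Flexor and 0.0418 to 0.05% in Supraspinatus, against 0.112 to 0.655% in Achilles and 0.0555 to 0.0978% in Patellar. Of 19 tested, 0 were higher and 13 lower in forelimb (median -1.32). Yet in Flexor minus Patellar 15 were higher, beside 26.2% of all genes tested. In Supraspinatus minus Achilles 19 were lower, beside 16.7%. Red blood cell genes took 0.00704 to 0.0141% of counts in forelimb and 0.0188 to 0.15% in hindlimb libraries, and 6 of 7 were lower and 1 higher. The alpha globin gene Hba-a1, whose reads may be shared with Hba-a2, had 6.46 to 19.1 CPM in forelimb libraries (median 13.8), against 25.6 to 335 CPM in hindlimb libraries (median 54.4), for a log2 fold change of -2.31 ± 0.29 (SE, edgeR adjusted p = 1.1e-05), and neither contrast with Achilles passed, at -1.2 for Flexor (edgeR adjusted p = 0.0512) and -0.95 for Supraspinatus (edgeR adjusted p = 0.0783). In both contrasts with Patellar 6 of the 7 were lower, beside 24.2% of all genes tested for Flexor and 26.8% for Supraspinatus. Against Achilles edgeR called 0 lower in either contrast, with 4 lower at an unadjusted p under 0.05 for Flexor and 3 for Supraspinatus. Of 13 bone markers 7 were lower and 2 higher (median -1.43). Bone sialoprotein, Ibsp, had 3.21, 4.07, 1.69 and 7.48 CPM in Flexor and 0.379, 0.314, 0.672 and 0.524 CPM in Supraspinatus libraries, against 292, 807, 351 and 606 CPM in Achilles and 37.9, 27.3, 23.5 and 13.3 CPM in Patellar libraries, with a log2 fold change of -6.36 ± 0.37 (SE, edgeR adjusted p = 8.57e-09). The bone matrix gene Bglap stayed at 1.92 CPM or less in every library. Runx2, the master factor of osteoblasts, had 0.419 to 1.67 CPM in forelimb libraries (median 0.941), against 2.16 to 6.73 CPM in hindlimb libraries (median 2.97), for a log2 fold change of -1.74 ± 0.28 (SE, edgeR adjusted p = 9.48e-05).

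Of 16 endothelial genes 1 was higher and 6 were lower (median -0.40), but without Patellar 1 was higher and 15 were lower. In Supraspinatus minus Achilles 12 of the 16 were lower, beside 16.7% of all genes tested. The endothelial factor Erg had 3.15 to 7.14 CPM in forelimb libraries (median 4.5), against 7.51 to 15.4 CPM in hindlimb libraries (median 11.6), for a log2 fold change of -1.31 ± 0.17 (SE, edgeR adjusted p = 1.57e-05). Of 17 macrophage genes 2 were higher and 3 lower (median 0.11), of 13 pericyte genes 4 were higher and 2 lower (median 0.10), of 12 epidermis genes 3 were higher and 2 lower (median 0.12), and of 8 mast cell genes 4 were lower (median -1.54). The shares over all genes tested were 24% higher and 23.9% lower. Without Patellar 2 pericyte genes were higher and 7 lower, 5 epidermis genes were higher and 2 lower, and 1 mast cell gene was lower. The list of ribosomal-RNA-like genes took 1.86 to 3.59% of counts in forelimb, 3.30 to 4.91% in Achilles and 13.2 to 42% in Patellar, and all 7 were lower in forelimb. With these genes left out of the counts 977 of 977 separating genes kept direction and call in the mean contrast, and 950 genes met all conditions for separating. With counts also thinned at random to the depth of the smallest library, 802 genes met them and 1241 had no overlap between the limbs. The part of nerve, blood, bone, vessel and immune RNA in the other differences was not tested.

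The share of fat genes differed between the limbs without overlap and that of muscle genes was lowest in Patellar, and 2 fits held these levels equal. With the mean log2 level of the muscle markers as a covariate, 5665 genes were called. Of the 977 separating genes 824 kept direction and call in the mean contrast, while 413 genes met all conditions for separating in that fit. In the mean contrast 11 of 15 fast fibre genes, 6 of 12 genes of the satellite cell and myogenic list and 16 of 19 adipocyte genes passed. Of 40 axon guidance genes 7 were higher and 5 lower in that fit, against 4 and 19 without the covariate. All of the fast fibre genes but Myoz1 are part of that muscle score, so for them the adjustment is not an independent check. The adipocyte score was 4.37 to 5.78 in forelimb and 7.37 to 8.72 in hindlimb libraries as mean log2 CPM, without overlap, so that fat content and limb cannot be told apart by a fit. With both scores held level, a choice made after the data were seen, 111 genes were called. Of the 977 separating genes 885 kept their direction and 46 their call in the mean contrast. Genes called with both scores held level include Hoxc8, Hoxc9, Hoxc10, Tbx5, Pitx1 and Shox2 and also Cd55, Aspn, Mstn, Myh4, Odf3l2 and Nos1, with Tbx5 at 4.6 (edgeR adjusted p = 0.00538). In that fit the log2 fold changes of Plin1 (0.10), Lgals12 (0.52), Hcar1 (0.20), Arxes1 (0.46), Fcor (0.27), Ankef1 (0.97) and Timp4 (0.083) had the opposite sign to the values above. None of them passed, with edgeR adjusted p from 0.438 for Ankef1 to 0.976 for Timp4, so these signs are not shown reversals. Plin1 is itself part of the adipocyte score.

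Protein-coding genes made up 73.8% of the separating genes higher in forelimb and 72% of those lower, against 66.6% of all genes tested. Processed pseudogenes made up 79 of the 469 higher (16.8%) and 17 of the 508 lower (3.35%), against 9.99% of all tested. Pseudogenes share sequence with their parent genes, so reads counted to them are uncertain.

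In the authors' deposited table of pairwise comparisons, which lists 13452 genes, 368 genes were higher and 670 lower in all 4 pairs of a forelimb with a hindlimb tendon at a false discovery rate below 0.05. Of the 1308 genes that passed here in all 4 pairs, 962 are listed in the authors' deposited table, 877 passed there in the same direction in all 4 pairs and 0 in the opposite direction.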

How the data were processed

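Total RNA was taken from tendons with a miRNeasy Micro kit and DNase I, and sequenced as Illumina libraries, per the labels' protocols. The deposited table gives raw read counts per gene, made by the authors with reads aligned to mm10. FastQC, HISAT2 and edgeR are named in the submitters' processing notes. The read counter, its strand setting and the annotation release were not given in the sources used. A second table deposited by the authors holds log2 fold changes and p-values of pairwise comparisons, and the signs of its fold changes and its adjusted p-values were used here.

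Counts were analysed with R 4.3.3 and edgeR 4.0.16. Genes were kept by filterByExpr grouped by tendon (23754 of 41204), scaled by TMM and fitted with edgeR's robust quasi-likelihood method, each tendon having its own mean. Forelimb minus hindlimb was the mean of Flexor and Supraspinatus minus the mean of Achilles and Patellar. P-values are 2-sided with Benjamini-Hochberg adjustment over all genes tested at 0.05, and standard errors are the absolute fold change over the square root of F. The fit was tested on simulated data. Of 120 pairs of libraries 0 had identical counts. Replicate numbers were not treated as pairs. Intervals are not given for single counts, and depth limits the precision of genes near 0 CPM.

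The genes compared, the gene lists and the panel were chosen with earlier results of these data known. The named genes are the 15 higher and 15 lower separating genes with a mean of at least 5 CPM in the limb where they are higher and the largest smallest difference over the 4 tendon pairs, leaving out predicted genes and pseudogenes, plus a panel and up to 4 called members without overlap from each list. Just inside and outside that choice lay Ache (2.75) and Katnal2 (2.61) among the higher and Arxes1 (3.70) and Ankef1 (3.63) among the lower, as log2 differences. Positions are from the GENCODE annotation of GRCm38, and promoters from RefSeq matched 286 of 469 and 301 of 508 separating genes by symbol.

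Alternatives were DESeq2 1.42.0, median-ratio scaling, no filter, a minimum mean of 5 CPM, a log2 fold change of 1 or more in size, a replicate block, marker covariates, and leaving out rRNA-like genes, each tendon and each library. Figures were drawn with matplotlib 3.10.9.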

Additional observations from a re-analysis of the deposited data

Results flagged for a closer look

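In 421 sets of 4 libraries of a tendon, levels were compared as log2 CPM with a prior count of 2. For each set the largest distance of 1 end library to its nearest neighbour was taken as a share of the whole range of the 4. In 15 sets this ratio was above Dixon's 95% critical value, and chance gives about 1 in 20 such sets. The values below are CPM, while the ratios are of the log2 values. Flexor library 2 was low for Myf5 (1.62, against 1.96 to 2.02 in the others, ratio 0.861).

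In Supraspinatus, library 4 was low for Myh4 (24580, against 28720 to 29400 in the others, ratio 0.871) and for Bbox1 (4.46, against 10.2 to 11.7, ratio 0.862). It was high for Tbx18 (11.5, against 7.31 to 7.84, ratio 0.846) and for Rspo1 (38, against 20.1 to 21.5, ratio 0.896). Supraspinatus library 3 was high for Hoxd11 (0.257, against 0.0228 to 0.0393, ratio 0.83). Supraspinatus library 2 was high for Fabp4 (504, against 144 to 164, ratio 0.895).

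In Achilles, library 4 was low for Fst (14.5, against 18.9 to 19.7, ratio 0.863). In Patellar, library 1 was high for Prg4 (2062, against 1285 to 1340, ratio 0.912) and low for Bmp5 (0.023, against 2.07 to 2.74, ratio 0.932). Patellar library 2 was high for Fst (24.8, against 12.6 to 13.5, ratio 0.901) and for Adamts9 (21.3, against 11.9 to 13, ratio 0.852). Patellar library 3 was low for Epha3 (6.18, against 11.4 to 12.3, ratio 0.886). Patellar library 4 was high for Runx2 (6.73, against 2.26 to 2.6, ratio 0.872) and low for Katnal2 (0.162, against 0.794 to 1.08, ratio 0.832). Myf5, Myh4, Bbox1, Rspo1, Fabp4, Fst, Adamts9, Epha3, Runx2 and Katnal2 kept forelimb and hindlimb libraries apart with these libraries included.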

How the results depend on the processing

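Of 11387 called genes (5706 higher and 5681 lower in forelimb, 1308 in all 4 tendon pairs, 1652 without overlap, 977 separating), a minimum mean of 5 CPM left 6414 called (3002 and 3412, 810, 876 and 600). Asking for a log2 fold change of 1 or more in size left 5351 (2188 and 3163, 758 in all pairs, 578 separating), and the muscle covariate 5665 (2924 and 2741, 572 in all pairs, 413 separating). The muscle and adipocyte covariates together, chosen after seeing the data, left 111 (74 and 37, 14 in all pairs, 6 separating). Leaving out a tendon leaves fewer pairs to pass: the counts in all pairs, without overlap and separating were 3573, 3265 and 2762 without Patellar, 7484, 6291 and 5959 without Achilles, 2309, 3962 and 1979 without Supraspinatus, and 4629, 5105 and 3761 without Flexor. Leaving out 1 library gave 10644 to 12539 called genes (5191 to 6326 higher, 5217 to 6213 lower), 868 (without Flexor replicate 2) to 1768 (without Patellar replicate 3) in all pairs, 1649 to 2621 without overlap, and 717 (without Flexor replicate 2) to 1338 (without Patellar replicate 3) separating. DESeq2 called 12188 genes in the mean contrast, with 974 of the 977 separating genes among them.

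Same-numbered libraries varied together little (24 pairs, r from -0.135 to 0.255, median 0.0165). The 2 pairs over 0.1 were of Flexor with Supraspinatus libraries, and whether these share animals is not known. A replicate block called 10848 genes with 1198 in all pairs and 893 separating, and changed the call of 0 of 104 named genes that pass.

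With both covariates the log2 fold change changed sign for Lgals12 (0.52), Hcar1 (0.20), Plin1 (0.10), Arxes1 (0.46), Timp4 (0.083), Alas2 (0.021), Ankef1 (0.97) and Fcor (0.27). None of these values passed, with edgeR adjusted p from 0.438 to 0.998. Without Supraspinatus the log2 fold change changed sign for Tbx4 (0.42), Hoxa11 (0.98) and Prg4 (0.084). Among them only Hoxa11 passed (edgeR adjusted p = 0.0443). Without Flexor it changed sign for Hoxc5 (0.48), Hoxa13 (-1.11), Hoxd10 (-1.87), Hoxd11 (-2.01), Meis1 (0.70), Meis2 (0.68), Lmx1b (0.44) and Scx (0.34). Those that passed with the changed sign were Hoxd10 (edgeR adjusted p = 0.00107), Meis1 (0.00957), Meis2 (0.0233) and Hoxd11 (0.0453). Without Achilles the value of Hoxa11 was 0.11. Without Patellar it was -0.17 for Hoxa13, -0.46 for Hoxd11, 0.45 for Emx2 and 0.43 for Lmx1b. None of the values without Achilles or without Patellar passed. The cause was not tested.

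Hoxd9 (main 0.43, edgeR adjusted p = 0.0466) lost its call in 12 of 16 fits without 1 library, Hoxd11 without Supraspinatus replicate 3 (1.12, edgeR adjusted p = 0.0572) and Hoxd12 without Supraspinatus replicate 1. Genes within a few counts of 0 in a limb, such as Hoxc11 and Isl1, are limited by depth, most in Patellar.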
